A study of Mus musculus with 2 samples.

Results

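H3K9me3 regions in gene deserts are regions of trimethylated lysine 9 of histone H3 that lie far from any protein-coding gene. A region was taken when its nearest edge was at least 200 kb from the body of every protein-coding gene of GENCODE M1 in mm9. Of the 52121 regions on chromosomes 1 to 19, 11523 qualified, or 22.1%. The rule used position alone, so the height, width and sequence of the regions were free to vary. They are called desert regions here, and the 40598 regions nearer to genes are called other regions.

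The mark was mapped by ChIP-seq, in which chromatin bound by an antibody to H3K9me3 is sequenced, in E14TG2a.4, an embryonic stem cell line of mouse. This male line of strain 129/Ola comes from embryos at 3.5 days. The series holds 1 group of 2 biological replicates, each from its own biosample of the same line, untreated as far as the labels say, with no control library among the samples. The mm9 lists used were 3: 1 for each replicate and a series-level list, for which no source says whether it pools the replicates. Replicate 1 had 9173 desert regions of 39672, and replicate 2 had 11149 of 49371. The files were lists of called regions without reads, so the depth is unknown. The reads came from a 129/Ola line and were placed on the C57BL/6J reference of mm9, so a repeat copy carried by only 1 of these strains cannot be seen as such.

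H3K9me3 is a mark of silent heterochromatin and is bound by proteins of the HP1 family. In mouse embryonic stem cells the methyltransferase SETDB1, brought to DNA by TRIM28 and KRAB zinc finger proteins, is known to place it on endogenous retroviruses, and it also marks young LINE-1 elements. Gene deserts are long intervals without coding genes, often beside genes of development and the nervous system, and are rich in such repeats. No repeat annotation was used here, so repeats were recognised only from sequence: a base was called high-copy when the 16-mer starting there occurred at least 50 times in the mm9 chromosomes, both strands counted.

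The sequences that recurred most among desert regions were sought as 30-mers, stretches of 30 bases matched exactly on either strand. Overlapping 30-mers were reduced to 1 each, and 96 were kept, each held by at least 1186 desert regions. The 6 held by the most desert regions are shown because they carry the main sequence result, and they are in capitals because every base had to match.
first: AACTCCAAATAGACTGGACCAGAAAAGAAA
rank 2: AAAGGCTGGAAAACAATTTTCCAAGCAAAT
rank 3: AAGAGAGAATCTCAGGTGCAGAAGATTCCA
rank 4: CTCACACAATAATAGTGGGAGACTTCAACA
rank 5: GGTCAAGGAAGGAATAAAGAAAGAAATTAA
rank 6: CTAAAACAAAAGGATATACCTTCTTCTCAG
The first was held by 3664 desert regions and the sixth by 3332. They lay along the same unit: 72.6% to 75.5% of the copies of ranks 2 to 6 were within 8 kb of a copy of the first. Their median place on its strand ran from 262 bp before it (rank 3) to 1246 bp after it (rank 5). As background, these letters are recognised as mouse LINE-1, a retrotransposon with 2 open reading frames, and the first 30-mer as part of its ORF1.

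A second sequence of interest was the first 30-mer outside that unit that is not a simple repeat such as CA or GA, when 30-mers were taken in order of how many further regions they reached. It is recognised, as background, from the long terminal repeat (LTR) of the intracisternal A-particle, or IAP, an endogenous retrovirus of mouse.
second: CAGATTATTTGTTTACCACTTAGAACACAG
It was held by 650 desert regions. The windows below show it in capitals in desert regions of the highest fold enrichment, with a 300-base stretch of each in the mm9 build.
chr14:71858801-71859100 (- strand): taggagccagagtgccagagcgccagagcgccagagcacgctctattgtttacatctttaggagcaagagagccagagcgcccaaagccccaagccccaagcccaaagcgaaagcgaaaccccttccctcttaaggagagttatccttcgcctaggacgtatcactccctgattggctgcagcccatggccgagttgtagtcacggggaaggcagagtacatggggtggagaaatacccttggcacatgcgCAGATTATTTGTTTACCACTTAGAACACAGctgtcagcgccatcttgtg
chr14:89390251-89390550 (+ strand): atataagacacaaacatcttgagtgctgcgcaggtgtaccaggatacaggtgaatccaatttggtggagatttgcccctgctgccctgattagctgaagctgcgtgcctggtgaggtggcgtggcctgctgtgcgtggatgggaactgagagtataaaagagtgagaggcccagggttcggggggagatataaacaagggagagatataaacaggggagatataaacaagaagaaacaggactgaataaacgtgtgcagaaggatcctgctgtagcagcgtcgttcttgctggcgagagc
chr3:71435634-71435933 (+ strand): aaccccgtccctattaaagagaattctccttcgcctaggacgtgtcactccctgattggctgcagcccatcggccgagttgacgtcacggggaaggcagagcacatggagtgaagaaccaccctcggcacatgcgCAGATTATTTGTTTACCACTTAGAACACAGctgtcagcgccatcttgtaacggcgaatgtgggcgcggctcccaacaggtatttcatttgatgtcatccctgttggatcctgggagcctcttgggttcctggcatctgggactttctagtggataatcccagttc
The window on chr14:89390251-89390550 held no exact copy of the second 30-mer and shared no 16-mer with the other windows shown here. The windows on chr14:71858801-71859100 and chr3:71435634-71435933 shared 59 of 284 16-mers. They held 12 and 14 CpG dinucleotides, or 40.0 and 46.7 per kb. The desert region of highest fold enrichment that held the first 30-mer and not the second, and lay in both replicate lists, is shown for contrast, with the first 30-mer in capitals.
chr1:110304463-110304762 (- strand): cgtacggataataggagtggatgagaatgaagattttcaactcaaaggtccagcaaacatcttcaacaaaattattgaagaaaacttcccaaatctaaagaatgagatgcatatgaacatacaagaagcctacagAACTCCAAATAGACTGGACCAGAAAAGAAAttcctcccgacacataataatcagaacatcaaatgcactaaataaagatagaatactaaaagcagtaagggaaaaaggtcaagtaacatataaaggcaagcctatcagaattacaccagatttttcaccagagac
This stretch had 3 CpG dinucleotides, or 10.0 per kb.

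Desert sequence made up 444 Mb of chromosomes 1 to 19, or 18.6%. Desert regions, which lie wholly in it, covered 10.5% of it in replicate 1 and 12.3% in replicate 2. Other regions came to 8.14% and 9.27% of the other sequence. Regions that cross the edge of a desert count among the latter, so their desert bases are left out of the desert shares. Both replicates thus had more of the desert sequence covered, by 2.69 ± 0.445 percentage points (SD, n = 2). In the series-level list the shares were 13.1% and 10.0%. Desert regions were also closer together, with 20.7 per Mb in replicate 1 and 25.1 in replicate 2, against 15.6 and 19.6 elsewhere.

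Coverage did not simply grow with distance from genes. In replicate 1, bases inside a protein-coding gene were covered at 4.19%, those 10 to 50 kb away at 13.7%, and those over 1 Mb away at 10.7%. In replicate 2 the same classes had 4.84%, 15.4% and 12.8%. The desert classes of 200 to 500 kb, 500 kb to 1 Mb and over 1 Mb had means of 11.8% ± 1.27, 11.1% ± 1.26 and 11.8% ± 1.44 (SD, n = 2), with the middle class the lowest in both replicates (10.2% and 12.03%). The 10 to 50 kb class was the highest in each list. Those of 50 to 100 kb (12.1% and 13.8%) and 100 to 200 kb (11.7% and 13.4%) were also above every desert class in both replicates. Deserts were thus less covered than sequence 10 to 200 kb from genes. The lower share of the other sequence as a whole came with the low coverage of gene bodies and their first 10 kb.

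**Figure D1:**
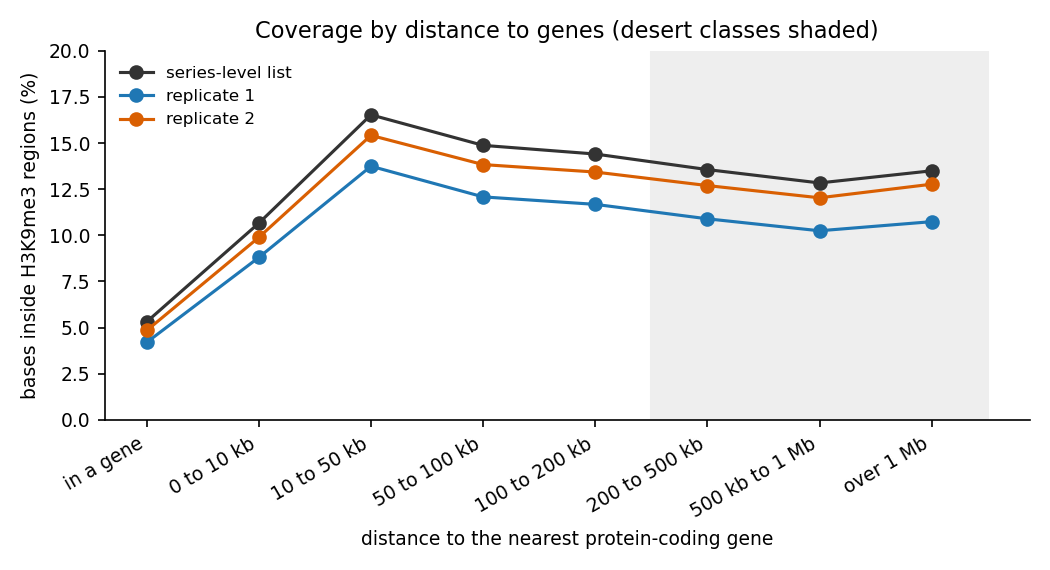
Percent of bases inside H3K9me3 regions (vertical) against distance to the nearest protein-coding gene (horizontal) for the 2 replicate lists and the series-level list, with the 3 desert classes shaded. Coverage is lowest in genes (4.19% and 4.84% in the replicates), highest at 10 to 50 kb and level across the desert classes.

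The narrow peaks deposited in mm10 gave another picture, and builds were not mixed. With RefSeq protein-coding genes of GRCm38.p6, 24793 of 118999 peaks of the authors' replicated list were in deserts. They covered 3.54% of the desert sequence and peaks elsewhere 3.77% of the rest. The replicate lists had 2.53% against 2.87% and 3.96% against 4.01%. Desert coverage was thus higher in all 3 mm9 lists and lower in the 4 mm10 lists, the pooled one (4.32% against 4.54%) included. Unsequenced gaps count as sequence in the mm10 shares and not in the mm9 shares, and their part in this was not tested. Desert peaks of the replicated list numbered 51.7 per Mb against 48.2, with median widths of 502 and 541 bp. In replicate 1 they were less dense than elsewhere, at 63.7 against 64.7 per Mb.

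Desert regions were longer than other regions and of nearly the same fold enrichment. Median widths in replicates 1 and 2 were 4200 and 4000 bp, against 4000 and 3400 bp for other regions. The median fold enrichment, the authors' linear value for each region, was 2.75 in replicate 1 and 3.30 in replicate 2, against 2.82 and 3.34. The difference of −0.0585 ± 0.0191 (SD, n = 2) was small and had the same sign in both replicates. The SD between the replicates' own medians was 0.389 for desert regions and 0.370 for other regions, a shift common to both. In the series-level list the sign turned at a distance of 500 kb (2.85 against 2.83) and among regions with a fold of at least 4 (5.24 against 5.11). In that list 20.0% of desert regions had a fold of at least 4, beside 20.4% of all regions, so strong regions were about as common in deserts as over all regions.

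The sequence under the mark did differ. High-copy bases made up 58.5% and 57.0% of desert regions in replicates 1 and 2, against 46.9% and 46.5% of other regions. The difference was 11.1 ± 0.758 percentage points (SD, n = 2). Desert sequence as a whole was 22.7% high-copy and chromosomes 1 to 19 were 18.1%, while desert sequence outside regions was 17.5%. Of the desert regions of the series-level list 57.6% were high-copy over at least 50% of their bases, beside 41.6% of all regions. CpG dinucleotides, the sites of DNA methylation, were at 9.77 and 9.50 per kb in desert regions and at 10.4 and 10.2 in other regions. Desert sequence outside regions had 5.04 per kb. For coverage, density, width, fold, high-copy share and CpG alike, an exact paired permutation test over the 2 replicates gave p = 0.5, the smallest that 2 pairs allow.

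Most desert regions were found again in each replicate. Of 11523, 8778 were overlapped by at least 1 bp in both replicate lists, or 76.2%, beside 72.1% of all regions and 70.9% of other regions. Replicate 1 missed more: 2099 desert regions were met only in replicate 2, 75 only in replicate 1 and 571 in neither. Regions in both lists had a median width of 5000 bp and a median fold of 2.96, and the rest 2000 bp and 2.40. A replicate's fold at a region of the series-level list is the highest among its own regions that overlap it. Where both lists had a region, replicate 2 gave the higher fold in 87.1% of desert regions, with medians of 3.47 and 2.77. Folds are therefore compared within a list here.

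The first 30-mer, from the LINE-1 unit, was held by more desert regions than any other 30-mer. In the series-level list 31.8% of desert regions held it, beside 22.2% of all regions and 19.5% of other regions. The number was 3486 in replicate 1 and 3670 in replicate 2. Its copies numbered 64.7 per Mb of desert regions, 42.1 per Mb of other regions and 0.501 per Mb of desert sequence outside regions. Since 30-mers were picked for being frequent in desert regions, these shares describe them and test nothing.

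Nearly every copy of the first 30-mer lay in H3K9me3. Of 3992 copies in desert sequence, 89.7% were inside a region in replicate 1 and 94.9% in replicate 2. Of the 8799 copies nearer to genes, which took no part in choosing the 30-mer, 87.3% and 92.8% were inside a region. Desert copies had slightly higher shares in each replicate (92.3% ± 3.68 against 90.1% ± 3.87, SD, n = 2). The 30-mer was chosen for the number of desert regions that hold it, which favours desert copies, so this difference tests nothing. Both kinds of copies had higher shares in replicate 2, so these SDs do not measure the spread of the difference between them. The 195 desert copies outside regions of the series-level list lay in shorter open reading frames. The longest frame over the 30-mer, counted between stop codons on its strand, had a median of 133 codons there and 342 codons at the 3797 copies inside regions. A frame of at least 300 codons was found at 14.9% and 54.9% of them.

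H3K9me3 lay over one end of the unit. Of the 96 shared 30-mers, those before the first had a median of 91.6% of desert copies inside regions in replicate 1 and 97.4% in replicate 2. The 30-mers 2000 to 3000 bp after it had 37.0% and 47.0%. Those 4000 to 5000 bp after it had 9.99% and 12.4%, close to the coverage of desert sequence as a whole. In the series-level list the 3 classes had medians of 97.5%, 57.9% and 17.1% in deserts and 96.8%, 58.1% and 17.7% elsewhere. In LINE-1, ORF2 follows ORF1, and the end after it is the part most often left in truncated copies.

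Copy number moved with this gradient. The median 30-mer had 7158 copies on chromosomes 1 to 19 in the class before the first 30-mer, 11909 at 2000 to 3000 bp and 26959 at 4000 to 5000 bp. No source used here says how reads that map to several places were handled, and the part of copy number in the gradient was not tested. Among desert copies with a first 30-mer within 8 kb the class medians were still 98.0%, 66.4% and 28.9%, and among the others 95.4%, 39.7% and 9.50%. The decline was thus present in both sets of copies, and lower shares were seen where no first 30-mer was near.

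**Figure D2:**
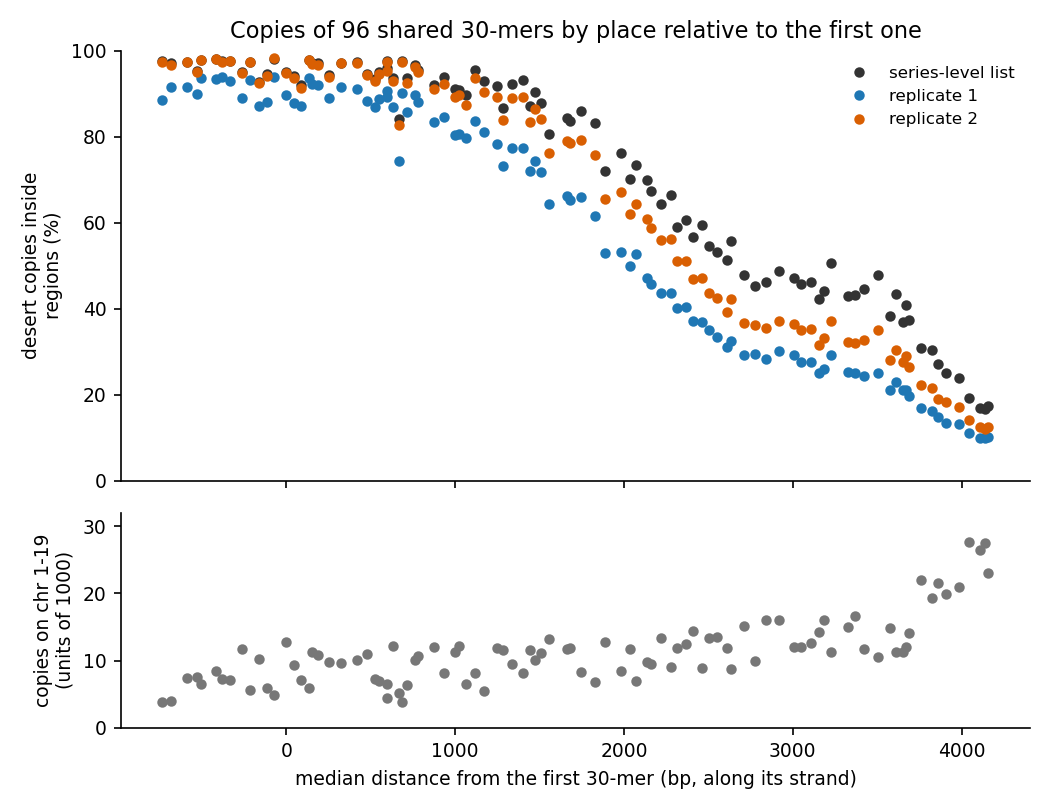
Top: percent of desert copies of each of 96 shared 30-mers that lie inside regions (vertical) against the 30-mer's median distance from the first 30-mer in bp (horizontal), for the 2 replicate lists and the series-level list; bottom: number of copies in units of 1000. In replicate 1 the median share falls from 91.6% before the first 30-mer to 9.99% at 4000 to 5000 bp after it, while the number of copies rises.

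Seen base by base, regions over the first 30-mer were asymmetric. At 1000 bp before a desert copy 78.3% (replicate 1) and 87.7% (replicate 2) of positions were inside a region, and at 2000 bp before it 37.3% and 42.8%. On the other side the shares were 84.3% and 91.4% at 1000 bp and 55.9% and 67.1% at 2000 bp. At 5000 bp after the copy they were 9.24% and 11.2%. The second 30-mer gave a sharper summit on a wider base. The base where its desert copies begin was inside a region in 95.2% and 97.0% of cases, and at 4000 bp on either side the shares were still 52.3% to 55.7% over both replicates. Copies nearer to genes followed the same course, with 54.2% to 57.1% at 4000 bp.

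**Figure D3:**
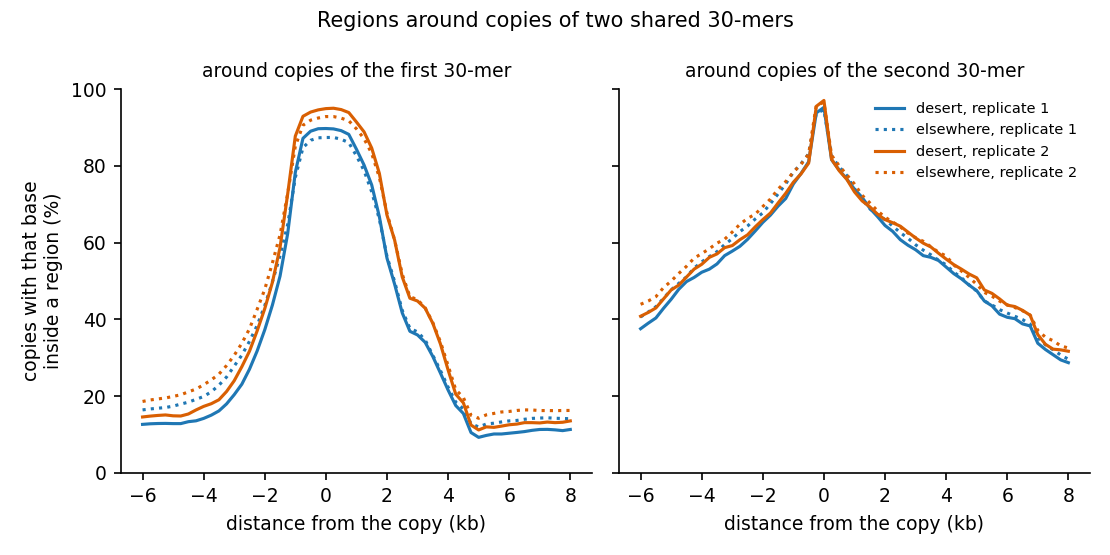
Percent of copies with a given base inside an H3K9me3 region (vertical) against distance from the copy in kb along its strand (horizontal), for the first (left) and second (right) 30-mer, in desert sequence (solid) and elsewhere (dotted), by replicate. The first 30-mer has a broad summit that falls off sooner before the copy than after it, and the second a narrow summit at the copy with over 50% of copies still covered at 4 kb.

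The second 30-mer, from the IAP LTR, was held by most of the desert regions with a fold of at least 8. It was in 5.64% of desert regions, beside 5.32% of all regions, so unlike the first it was held by about the same share of desert regions as of all regions. Of its 1108 desert copies, 94.6% were inside regions in replicate 1 and 96.8% in replicate 2. Regions with it and not the first had a median fold of 6.36 in replicate 1 and 8.88 in replicate 2, or 7.62 ± 1.78 (SD, n = 2). Regions with the first and not the second had 2.42 and 2.87, or 2.65 ± 0.322. Regions with neither had 2.91 and 3.45, or 3.18 ± 0.387. In both replicates the order was the same, and the second 30-mer's median was higher than the others by more than the replicate spread.

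Width and CpG content separated the classes too. Desert regions with the second 30-mer alone had a median width of 7200 bp in each replicate, those with the first alone 4400 and 5000 bp, and those with neither 3800 and 3200 bp. The 58 desert regions of the series-level list that held both had a median of 15400 bp and a fold of 5.31. CpG density was 14.2 per kb with the second alone, 9.63 with the first alone and 8.21 with neither. Of 344 desert regions with a fold of at least 8, 225 held the second 30-mer (65.4%), 5 the first and 116 neither. Of the other regions at that fold, 702 held the second alone, 6 both, 2 the first alone and 400 neither. A lower cut reads differently, since 2305 desert regions had a fold of at least 4 and only 650 of any fold held the second 30-mer. Other regions showed the same pattern, with median folds of 6.98, 2.54 and 2.85 for the second alone, the first alone and neither.

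**Figure D4:**
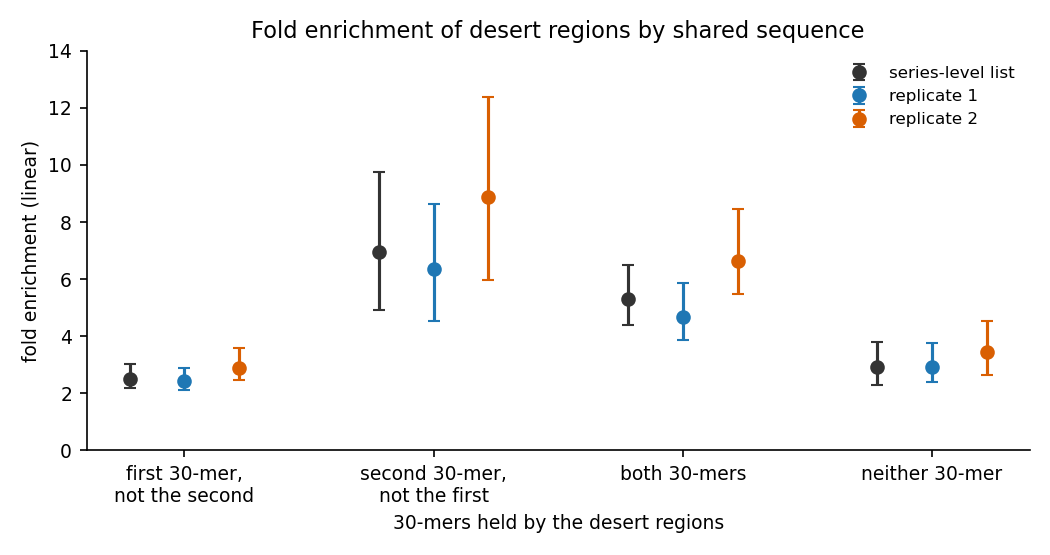
Fold enrichment (vertical, linear) of desert regions by the 30-mers they hold (horizontal) in the series-level list and the 2 replicate lists; points are medians and bars run from the lower to the upper quartile over regions. Regions with the second 30-mer have medians of 6.36 (replicate 1) and 8.88 (replicate 2), above the classes without it.

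Most of the 10 strongest desert regions of the series-level list were short, but strong desert regions in general were not. Of the 344 with a fold of at least 8, only 45 were up to 1000 bp wide. Among those with a fold of at least 10, 122 were 4000 to 8000 bp wide and 23 up to 1000 bp. The highest, at chr14:71858801-71859200 and 479 kb from Gfra2, a receptor of the GDNF family, was 400 bp wide with a fold of 23.5 in replicate 1 and 32.3 in replicate 2. The region at chr3:71435401-71436000, 1256 kb from Sis, which encodes sucrase-isomaltase, had 18.5 and 26.0. The region at chr1:111501201-111501600, 377 kb from the cadherin gene Cdh7, had 16.3 and 20.2. All 3 held the second 30-mer, were 400 or 600 bp wide and had 35.0 to 40.0 CpG per kb.

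A further 3 of the 10 strongest were found in both lists at over 10-fold. They lay 211 kb from Robo1, a receptor of axon guidance (chr16:72451801-72452400, 15.6 and 19.5), 270 kb from Pgk2, a germ cell phosphoglycerate kinase (chr17:40073601-40074000, 14.6 and 19.2), and 379 kb from Vgll3, a cofactor of TEAD transcription factors (chr16:66242201-66247800, 13.2 and 20.1). The one near Vgll3 was 5600 bp wide, the others 600 and 400 bp. The region at chr14:72534801-72535200 near Fndc3a had 1.88 in replicate 1 and 12.8 in replicate 2, so the replicates disagreed about it. The last 3, near Pcdh20, Gm5507 and Gm9008, had a fold of 26.0, 20.8 and 19.2 in replicate 2 and were absent from replicate 1. Of the 548 desert regions of up to 1000 bp only 20.6% were in both lists, against 94.4% of the 4391 regions of 4000 to 8000 bp.

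The widest desert regions were stronger than the median desert region, though not among the strongest. The widest, chr12:22686601-22754200, ran over 67600 bp. The highest fold of a region overlapping it was 5.03 in replicate 1 and 6.78 in replicate 2, and replicate folds of the other wide regions are such maxima too. The widest region was 32.1% high-copy, less than desert regions as a whole. Of the 10 widest, 3 of 50600 to 61000 bp lay on chromosome 1 between 370 and 633 kb from Tsn, the gene of the DNA- and RNA-binding protein translin, with folds of 2.86 to 4.03 in replicate 1 and 4.07 to 5.80 in replicate 2. The others were near Gm17680 on chromosome 12, 1190002N15Rik on chromosome 9, Gm4745 on chromosome 7, Gdi2 on chromosome 13, which accounted for 2, and Hnf4g on chromosome 3. All 10 were in both replicate lists. Every one of the 255 desert regions wider than 16000 bp was in both lists as well, with a median fold of 5.39.

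Regions on either side of the distance threshold were as follows. The nearest inside were 200.003 kb from Pkia, 200.034 kb from Penk and 200.039 kb from Npsr1, with folds of 2.27, 4.14 and 1.72 in the series-level list. The nearest outside were 199.991 kb from 3110001D03Rik, 199.989 kb from Fam83b and 199.961 kb from Adcyap1, with 2.97, 3.77 and 2.40. The region near Npsr1 was in neither replicate list and that near Adcyap1 was absent from replicate 1. A further 224 regions crossed the edge of a desert and were counted among the other regions. The median desert region was 422 kb from its nearest gene, the farthest 2258 kb, and 1380 were over 1 Mb away.

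Deserts rarely lacked the mark. Of 599 deserts with at least 100 kb of sequence, 596 held a desert region in the series-level list. The 3 without one lay between Ppargc1a and Dhx15 (0.182 Mb), Xirp2 and B3galt1 (0.178 Mb), and Dmrta1 and Zfp352 (0.124 Mb). None of these 3 had a region in either replicate list. In replicate 1 alone 11 such deserts had none, and in replicate 2 alone 7. Each of the 281 deserts of at least 500 kb held some in the series-level list. The next longest without one were between Adra1b and Il12b and between Tle3 and Rplp1, at under 100 kb.

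Coverage differed widely among the large deserts and repeated closely. Their median was 9.40% in replicate 1 and 11.3% in replicate 2, and Spearman's rho between the replicates was 0.98 over the 281 deserts, a description since both lists share the genome's sequence. The most covered in each list lay on chromosome 12 between Gm17391 and Gm10330, with 42.0% and 57.0%, where 14.6% of the interval is unsequenced. Next in the series-level list came the desert between Steap1 and Zfp804b on chromosome 5 (37.7% and 44.2%) and that between Gm17680 and Gm17391 on chromosome 12 (37.8% and 47.5%). The desert between Cntnap5a and Tsn on chromosome 1 had 40.5% and 39.3%, and that between 9130204L05Rik and Pglyrp3 on chromosome 3 had 32.6% and 34.1%. The order of the last 4 differed between lists. These 5 were 26.8% to 35.2% high-copy.

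In the series-level list the least covered large deserts were between Fam86 and Rbfox1 (2.05% and 2.29%) and between Robo2 and Lipi (2.14% and 2.36%), both on chromosome 16. The order differed in replicate 1, where the desert between Rps24 and Zmiz1 on chromosome 14 had 2.10%, against 2.98% in replicate 2. The first 2 were 10.1% and 14.2% high-copy, below the 22.7% of all desert sequence. Over the 281 deserts the covered share and the high-copy share had a Spearman's rho of 0.77, given as a description with no test. The deserts with most regions were the longest kind: 128 regions in 3.88 Mb between Cntnap5b and Cdh20, and 104 in 3.42 Mb between Dsel and Cntnap5a, both on chromosome 1. Those between Gm17624 and Vstm2a (103, chromosome 11), Olfm4 and Pcdh17 (102, chromosome 14) and Pcdh7 and G6pd2 (101, chromosome 5) followed.

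By chromosome, desert sequence was covered more than other sequence on 17 of 19 in each replicate. The exceptions were chromosome 7 and chromosome 19. On chromosome 7 desert sequence had 8.92% and 11.0% in replicates 1 and 2, against 11.4% and 13.0% of the other sequence. On chromosome 19, with the least desert sequence (6.38 Mb), the values were 5.80% and 7.21% against 6.02% and 7.36%. In the series-level list chromosome 19 had 7.94% against 7.72%. Regions crossing the edge of a desert count as other sequence in these shares, and the part of this rule in the small gap on chromosome 19 was not tested. The largest desert coverage was on chromosomes 6 (12.9% and 14.6%), 9 (12.9% and 14.4%) and 3 (12.5% and 14.7%), which did not differ beyond the replicates' spread. Median fold per chromosome stayed between 2.72 and 2.92 in the series-level list.

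**Figure D5:**
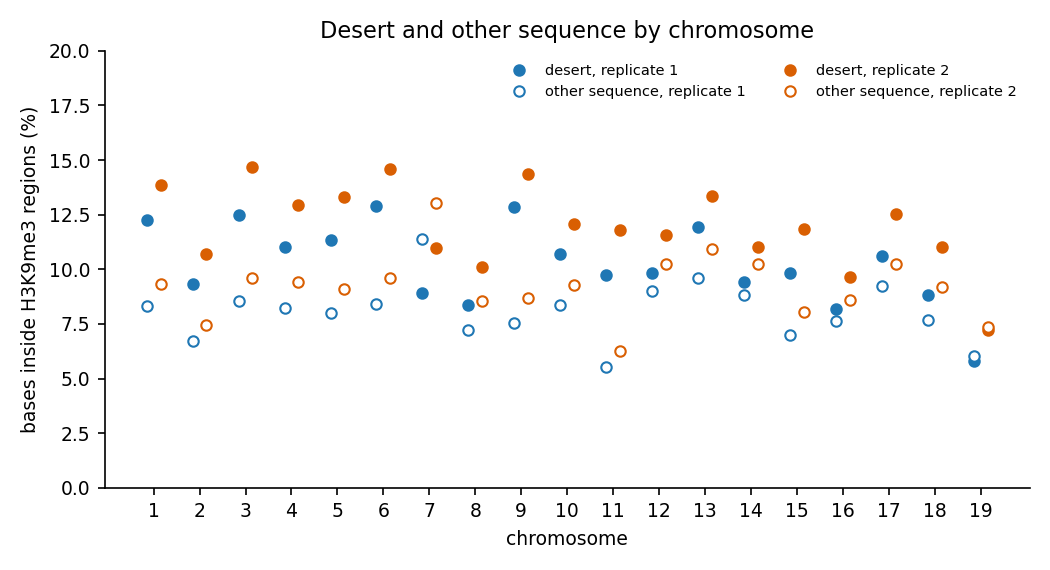
Percent of bases inside H3K9me3 regions (vertical) by chromosome (horizontal) in desert sequence (filled) and other sequence (open) for each replicate. Filled points lie above open ones except on chromosomes 7 and 19. Regions crossing the edge of a desert count as other sequence.

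Genes of cell adhesion and axon guidance families and of glutamate and GABA receptors bordered deserts more often than protein-coding genes as a whole. Olfactory and vomeronasal receptor genes did so less often. The first list was fixed by symbol, and holds cadherin and contactin symbols among others, and also Robo, Slit, Epha, Efna and Sema symbols of axon guidance. Its members are called adhesion genes for short. Of 21281 protein-coding genes, 6.24% bordered a desert, against 59 of 154 adhesion genes (38.3%) and 14 of 44 glutamate and GABA receptor genes (31.8%). Developmental transcription factors had 39 of 213 (18.3%), voltage-gated channels 18 of 134 (13.4%) and Zfp zinc finger genes 13 of 361 (3.60%). Of olfactory receptors 3 of 1106 (0.271%) bordered one and of vomeronasal receptors 0 of 326. These shares describe where deserts are, not the mark. Adhesion genes were nearest to 1401 desert regions, or 12.2%, whose median fold of 2.85 was near the 2.81 of all desert regions. The share of desert sequence nearest to these genes was not computed, so the 12.2% cannot be read as a trait of the mark.

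The 8 genes nearest to the most desert regions were Pcdh7 (93), Cntnap5b (83), Cntnap5a (77), Pcdh17 (76), Cdh9 (66), Pcdh10 (63), Tbl1xr1 (63) and Grik2 (59). These counts were not adjusted for the length of the desert beside each gene. The Pcdh genes encode protocadherins, Cdh9 a cadherin, the Cntnap5 genes contactin-associated proteins, Grik2 a kainate receptor of glutamate and Tbl1xr1 a subunit of corepressor complexes. Median folds of their regions ran from 2.64 (Tbl1xr1 and Cntnap5b) to 3.35 (Cdh9). For Pcdh7, 76 of its 93 regions were in both replicate lists, and for Cdh9 48 of 66.

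Deserts are not empty of genes of other biotypes than protein-coding, called noncoding here, and 1238 of them lay wholly in desert sequence. The count includes 103 immunoglobulin V segments, which code for protein and are in it by biotype alone. A desert region overlapped 226 of the 1238 (18.3%), against 14.6% of the 11997 noncoding genes elsewhere overlapped by any region. The number was 186 in replicate 1 and 238 in replicate 2. By kind the shares in deserts were 73 of 366 pseudogenes (19.9%), 49 of 131 processed transcripts (37.4%), 5 of 11 lincRNAs, 39 of 242 snoRNAs (16.1%), 28 of 182 snRNAs (15.4%) and 19 of 125 miRNAs (15.2%). Elsewhere the shares were 16.5% of pseudogenes, 19.9% of processed transcripts, 23.8% of lincRNAs, 7.07% of snoRNAs, 10.1% of snRNAs and 10.5% of miRNAs. The counts of small RNAs depended on the list: 41 and 61 snoRNAs, 17 and 27 snRNAs, and 12 and 19 miRNAs were overlapped in replicates 1 and 2. The lowest shares were those of immunoglobulin V segments, at 6 of 103 (4.37% elsewhere), and of misc_RNA genes, at 4 of 53 (7.41% elsewhere). Median lengths differed as well, at 14.2 kb for processed transcripts, 72.8 kb for lincRNAs and 0.128 kb for snoRNAs, and the part of length in these shares was not tested. By bases, pseudogenes were covered at 43.6% and processed transcripts at 10.2%.

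Of 238 noncoding genes of at least 1 kb in deserts, 14 were covered over their whole body, and the 10 longest of these are named, an order chosen after the values were seen. They were the pseudogenes Gm9864, Gm8582, Speer6-ps1, Gm11853, Kif22-ps and Gm12378 and the processed transcripts Gm11795, Gm12139, Gm11261 and Gm11815. Gm9864 (chr2:107435787-107440696) lay under a region with folds of 7.36 and 11.3 in replicates 1 and 2, and Gm11853 (chr4:18399336-18401445) under one with 6.54 and 9.75. Gm8582 was covered over 48.4% of its body in replicate 1 and Speer6-ps1 over 88.3%, and both over 100% in replicate 2. The other 8 were covered whole in both lists. Noncoding genes were met by 2.64% of desert regions and held 1.66% of their bases, beside 1.51% of desert sequence.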

How the data were processed

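H3K9me3 regions of 2 replicates of E14TG2a.4, 1 group, were read from lists that the authors deposited for mm9 and mm10. The fold enrichment of a region is a linear ratio deposited by the authors, and no source used here gives its denominator. In the mm9 lists the deposited p-value and q-value are linear, and boundaries lie on a 200 bp grid. In the series-level mm9 list all p-values and q-values are under 0.01. The mm10 lists that the authors deposited hold −log10 of p and of q. Replicates were called separately, per the deposited file lists. No source used here gives the peak caller, the aligner or the handling of multiply mapping reads. Wide regions join neighbouring signal and narrow peaks split it, which changes covered length.

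Distances, widths, CpG, 16-mer copy number (chromosomes 1 to 19, X and Y) and 30-mer copies were computed with Python 3.11.15, NumPy 2.4.6, pandas 2.3.3 and numba 0.67.0 on the NCBIM37 (mm9) sequence and GENCODE M1. For mm10, desert length ran between the first and last gene or peak. A desert is a stretch of desert sequence without a break. Covered shares in mm9 use sequenced bases only. For desert sequence as a whole and by chromosome they count the bases of regions wholly in deserts. By distance class and by single desert they count every covered base. No mm10 sequence was available, so mm10 shares use whole interval lengths with unsequenced gaps included. Replicates were compared by an exact paired permutation test, 2-sided, and values over regions within a list have no test. Overlap meant at least 1 bp. P-values over replicates measure only the spread between these 2 biosamples. Functions were tested on 300 simulated regions, all placed as simulated.

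Members and lists were chosen with earlier results of these data known. The rule named the 10 strongest and 10 widest desert regions, the deserts of at least 500 kb with most regions or coverage, the longest without one, the 8 genes nearest to most regions, 10 noncoding genes and the 6 most shared 30-mers. The least covered deserts, the second 30-mer, the 30-mer classes, reading frames and profiles were chosen after values were seen. Alternatives were other distances, all gene biotypes, fold and q thresholds, each replicate alone, merging, overlap and copy-number thresholds. Chromosomes X and Y and unplaced scaffolds were not analysed here.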

Additional observations from a re-analysis of the deposited data

How the results depend on the processing

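Of 79 values recomputed under an alternative, 45 stayed within 1 SD of the replicates (or, for counts, within 1.5 times; for the share in both replicates, within its 95% exact binomial interval). These are values of desert regions alone. Set against other regions, the median fold turned from lower (2.81 against 2.83) to higher at 500 kb (2.85 against 2.83) and at a fold of at least 4 (5.24 against 5.11). The number of desert regions went from 11523 to 4665 at 500 kb, 5129 at 200 kb from genes of any biotype and 2305 at a fold of at least 4. At that fold 3.71% of desert sequence was covered, with 5.19 regions per Mb, a median width of 5400 bp, a median fold of 5.24, 88.7% in both replicates, 49.5% high-copy bases and 12.5 CpG per kb. Taking stretches in both replicate lists gave 9.38% covered, 20.9 per Mb, 3600 bp, 58.9% high-copy and 10.1 CpG per kb. At 100 kb the median width was 4000 bp, the share in both replicates 75.4% and the high-copy share 55.2%; at 500 kb the last 2 were 77.3% and 60.2%. Merging within 1 kb gave 4400 bp, an overlap of at least 50% by each replicate 71.7%, and 16-mers present at least 10 or 500 times 69.3% and 43.0%. The mm10 replicated peaks covered 3.54%. The cause of these differences was not tested, apart from the fewer regions that a higher fold or larger distance leaves by construction.

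With 1 replicate list in turn, the number of desert regions was 9173 to 11149, covered desert sequence 10.5% to 12.3%, density 20.7 to 25.1 per Mb, median width 4000 to 4200 bp, median fold 2.75 to 3.30, high-copy share 57.0% to 58.5% and CpG 9.50 to 9.77 per kb. In the same lists deserts of at least 100 kb without a region numbered 7 to 11, chromosomes with more covered desert 17 in each, overlapped noncoding genes 186 to 238, the share of desert regions nearest to adhesion genes 12.03% to 12.4%, desert regions with the first 30-mer 3486 to 3670 and mm10 desert peaks 30574 to 40266; these were added after seeing the data. Desert sequence stayed more covered than other sequence under each mm9 alternative of distance, fold, q and list, and not in mm10. No paired analysis was possible because the labels give a single group and so no second group to pair samples with; the exact test in the report pairs desert with other regions within each replicate list. Depth is unknown, so regions missed in replicate 1 cannot be told apart from regions not called at its depth.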

Other observations

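Taking 30-mers in order of how many further desert regions each reached, an order chosen after seeing the data, 12 of them left 3921 desert regions (34.0%) with none. Besides the first and second 30-mers, 2 were simple repeats. The CA repeat was in 913 desert regions. An exact match began at 197047 positions of desert sequence, and only 3.37% of these matches were inside regions, below the 13.1% of desert sequence covered as a whole. Matches overlap within a repeat tract, so they are not separate copies and long tracts weigh more. The GA repeat was in 639 desert regions, with 4.60% of its desert matches, counted in the same way, inside regions. Both were less frequent in desert regions than in other regions, at 7.92% against 10.7% and 5.55% against 6.91%.

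Others were rarer and stronger. The 30-mer taken at round 12 was in 427 desert regions with a median fold of 7.24 (6.37 in replicate 1 and 8.97 in replicate 2), and 98.0% and 97.4% of its desert copies were inside regions. That of round 10 was in 360 regions with a median fold of 5.20 (4.73 and 6.30), and 84.0% and 94.3% of its desert copies were inside. That of round 9 was in 263 regions with 4.02 (4.07 and 4.87), and 51.4% and 68.6% of its desert copies were inside.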
